A study of Mus musculus with 6 samples.

Results

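The interleukin 1 family is a group of inflammatory cytokines with their receptors, an antagonist and the protease that activates the best known of them. The genes examined were Il1a, Il1b, Il18 and Il33 (ligands), Il1rn (antagonist), Casp1 (activating protease) and Il1r1, Il1rl1, Il18r1 and Il18rap (receptor chains). They were read from every probe set whose platform annotation names exactly 1 gene symbol, that symbol being one of the 10. This gave 13 probe sets of 45037 tested, for 9 of the 10 genes. Il1rl1, which encodes the IL-33 receptor ST2, had no such probe set and was not analysed here.

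The cells were the myeloid clone C6, haematopoietic progenitors from C57BL/6J mice that carry the doxycycline-dependent activator rtTA at the Rosa26 locus. All of them also carry a lentiviral vector, pRRL.TET.Evi1.IRES.EGFP, whose codon-optimized murine Evi1, with EGFP, is expressed in the presence of doxycycline. Evi1 is a zinc finger transcription factor on which the labels say this clone depends. The withdrawal group was 3 arrays of cells harvested 48 h after the drug was removed, and the doxycycline group 3 arrays of cells kept in 1 µg/ml of it. Both groups grew in murine stem cell factor (50 ng/ml), murine IL-3 (20 ng/ml), human Flt3 ligand (50 ng/ml) and human IL-11 (50 ng/ml). As all cells carried the vector, effects of the drug itself and of the transgene cannot be told apart. The model is 1 clone, and the labels do not state whether each array had a culture of its own; the p-values rest on the spread between samples alone, and that spread may be technical.

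IL-1α and IL-1β bind the receptor IL1R1, which then recruits the shared chain IL1RAP, while the antagonist IL1RN occupies IL1R1 without signalling. IL-18 uses IL18R1 with IL18RAP, and IL-33 uses ST2 with IL1RAP. The receptors signal through MyD88, IRAK kinases and TRAF6 to NF-κB and MAP kinases. IL-1β and IL-18 are made as precursors that caspase 1 cleaves once an inflammasome has formed, a step that mRNA levels do not measure. In blood cell formation IL-1 drives myeloid output from stem cells, and IL-33 and IL-18 act on mast cells, basophils and eosinophils.

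Il18 was the gene of the family that fell after doxycycline withdrawal, and no member rose. Of the 13 probe sets 1 was lower and 0 higher at a limma adjusted p below 0.05, against 1.97% of all 45037 probe sets called in either direction and 1.18% called lower. Counted by gene, on the probe set of highest mean, 1 of 9 passed, against 2.77% of 18193 genes in either direction, 1.2% called higher and 1.57% called lower. The transcripts of Casp1, Il1b and Il1rn were well above the floor of the arrays in both groups, and their differences did not pass. Both probe sets of Il18rap read higher after withdrawal on every array, but they did not pass either. Levels are log2 values after robust multi-array averaging (RMA), and each difference is withdrawal minus doxycycline on that scale with limma's standard error, n = 3 arrays per group.

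The promoters of Il18, the member that passed, and of Il18rap, the gene whose probe sets both read higher on all withdrawal arrays, are shown here as the 250 bases before the start of the gene (RefSeq, GRCm38.p6, plus strand, 5′ to 3′). The Il18 window is chr9:50554450-50554699 and the Il18rap window chr1:40515112-40515361. Capitals mark GAGGAA on either strand, the core of sites of the myeloid factor PU.1.
Il18: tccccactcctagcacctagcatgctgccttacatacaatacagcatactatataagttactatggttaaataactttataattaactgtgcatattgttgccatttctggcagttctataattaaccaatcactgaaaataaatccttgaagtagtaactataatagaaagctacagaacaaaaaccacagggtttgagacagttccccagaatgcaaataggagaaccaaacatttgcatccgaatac
Il18rap: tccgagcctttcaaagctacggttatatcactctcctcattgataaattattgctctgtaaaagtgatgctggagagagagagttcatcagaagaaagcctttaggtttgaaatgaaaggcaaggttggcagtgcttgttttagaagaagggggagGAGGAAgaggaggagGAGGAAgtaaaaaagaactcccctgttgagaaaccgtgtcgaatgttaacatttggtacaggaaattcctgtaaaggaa

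Both strands of all 17 RefSeq promoter windows of the 10 genes were searched for 3 motifs, and the same was done for all 32851 windows of that length in the table. AAGATAA, part of the site bound by the proximal zinc fingers of Evi1, was in 0 of the 17 windows and in 3.1% of all windows. GATGAG, part of the site of its distal zinc fingers, was in 2 of the 17, both of Il33, and in 10.1% of all windows. GAGGAA was in 4 of the 17, with 2 matches in Il18rap and 1 each in a window of Il1a, Casp1 and Il18r1, and in 23.3% of all windows. The Il18 window holds none of the 3 motifs. A match is a description of these letters only.

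**Figure D1:**
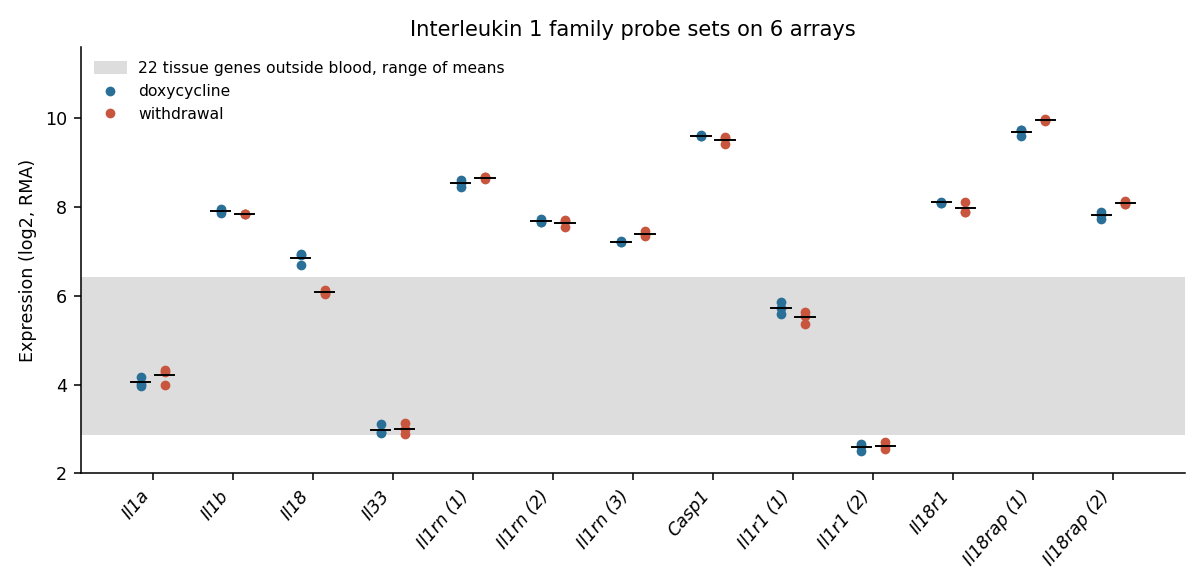
Expression (log2, RMA) of the 13 probe sets on each array, with doxycycline arrays in blue, withdrawal arrays in red and group means as bars; numbers in brackets order the probe sets of a gene from bright to dim. The grey band spans the means of 22 tissue genes outside blood (2.89 to 6.399). Il18 is lower on all 3 withdrawal arrays, whose mean of 6.08 lies within the band, while Il1a, Il33 and both Il1r1 probe sets lie within or below it in both groups.

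Among the ligands, Il18 read 6.92, 6.95 and 6.70 on the doxycycline arrays and 6.14, 6.03 and 6.07 on the withdrawal arrays. All withdrawal arrays were below all doxycycline arrays. The mean went from 6.86 ± 0.14 (SD, n = 3) to 6.08 ± 0.05 (SD, n = 3), a difference of -0.78 ± 0.09 with a limma adjusted p of 0.00607. On a linear scale the doxycycline level was 1.71-fold the withdrawal level, with a 95% interval from 1.49 to 1.97. The size of this fold is uncertain, since differences near the floor of an array are compressed. As a reference for that floor, 22 measured genes of tissues outside blood, such as Alb (albumin) and Ins2 (insulin), had means from 2.89 to 6.399. Their median was 4.77, and the withdrawal mean of Il18 lay in the upper part of that range. In bulk RNA fewer cells with a transcript and less of it per cell cannot be told apart.

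The call of Il18 was kept when any 1 array was left out, with differences from -0.86 to -0.73 and limma adjusted p from 0.0129 to 0.0443. Without both withdrawal replicate 3 and doxycycline replicate 1, the arrays that stand apart from the others on the second principal component, the difference was -0.74, with a limma adjusted p of 0.123. That fit compares 2 arrays with 2 and called 122 of all probe sets in place of 886.

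**Figure D2:**
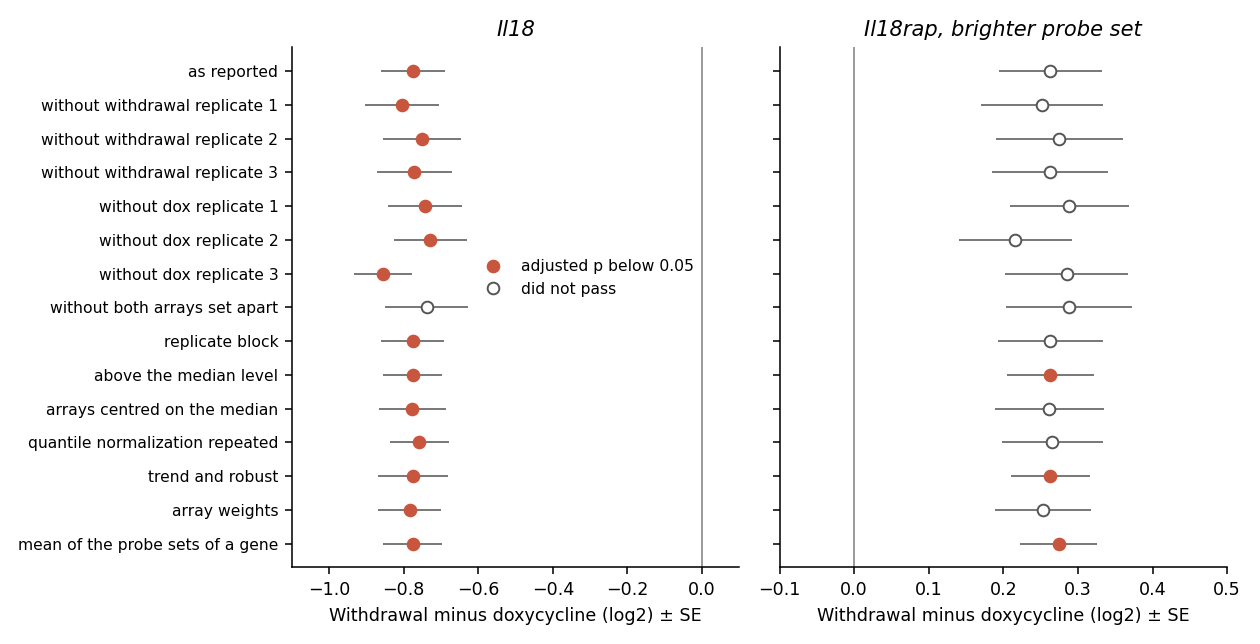
Difference between withdrawal and doxycycline (log2, points, with standard errors as bars) of Il18 and of the brighter Il18rap probe set in the reported fit and under each alternative; filled points have an adjusted p below 0.05. Il18 stays between -0.86 and -0.73, and the open point is the fit without both arrays set apart; Il18rap stays between 0.22 and 0.29 and is filled in 3 of the alternatives.

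Transcripts of monocytes and macrophages, cells known to make IL-18, moved with Il18. Of 11 measured genes on the list of that cell type 5 fell and none rose, against 1.57% of all genes called lower and 1.2% called higher. By sign alone 9 of the 11 were lower and 2 higher, with differences from -1.28 to 0.14. The mean level of the list was 8.87 to 8.94 on the withdrawal arrays and 9.22 to 9.25 on the doxycycline arrays. Csf1r, a growth factor receptor of macrophages, went from 11.08 to 10.69 on its brightest probe set. Its other probe sets differed by -0.19 and -0.05 without passing, and their average with it by -0.21 (limma adjusted p = 0.147). Mpeg1, a pore-forming protein of phagocytes, went from 11.44 to 11.01. None of the 11 genes had a mean within the range of the tissue genes outside blood. With 1 array left out, 4 of the 11 fell without withdrawal replicate 3 and 1 (Ms4a6c, a membrane protein of the MS4A family) without any other single array. Ms4a6c differed by -1.28 on its brightest probe set. Its other probe set differed by -0.10, with groups that overlap (limma adjusted p = 0.622). The part of these 11 genes in the result on Il18 was not tested.

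Il1b, the main secreted agonist of IL1R1, read 7.95, 7.87 and 7.92 on the doxycycline arrays and 7.84, 7.84 and 7.85 on the withdrawal arrays. The withdrawal values lie just below the others, without overlap, but 20.8% of all probe sets had groups that do not overlap. The difference was -0.07 ± 0.06, with a 95% interval from -0.22 to 0.07 and a limma adjusted p of 0.676. Il1a, an agonist that is active without cleavage, read 3.97, 4.01 and 4.17 under doxycycline and 4.33, 4.001 and 4.29 after withdrawal. Il33, an alarmin of barrier and endothelial cells, read 2.92, 2.93 and 3.10 under doxycycline and 2.88, 3.14 and 3.00 after withdrawal. Both were at levels of tissue genes outside blood, and their groups overlapped. Their 95% intervals ran from -0.09 to 0.41 for Il1a and from -0.19 to 0.24 for Il33, at levels where differences are compressed.

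The antagonist Il1rn was read by 3 probe sets that did not move together. The brightest read 8.62, 8.45 and 8.53 under doxycycline and 8.67, 8.64 and 8.67 after withdrawal, a difference of 0.12 ± 0.07. The next differed by -0.03 ± 0.07, with groups that overlap. The dimmest read 7.22, 7.22 and 7.23 under doxycycline and 7.40, 7.45 and 7.34 after withdrawal, a difference of 0.18 ± 0.06. Its unadjusted p in limma was 0.0267 and its adjusted p 0.266, so none of the 3 passed.

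Casp1, the protease that cleaves the precursors of IL-1β and IL-18, read 9.62, 9.60 and 9.61 under doxycycline and 9.58, 9.55 and 9.43 after withdrawal. The 3 withdrawal values were lower, the lowest of them on replicate 3. The difference was -0.09 ± 0.07, with a 95% interval from -0.25 to 0.07 and a limma adjusted p of 0.623.

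Of the receptor chains, Il18rap, the signalling partner of the IL-18 receptor, showed the largest differences among the members that did not pass. Its brighter probe set read 9.74, 9.60 and 9.74 under doxycycline and 9.98, 9.93 and 9.96 after withdrawal. The dimmer read 7.83, 7.88 and 7.73 under doxycycline and 8.14, 8.08 and 8.08 after withdrawal. On each probe set the withdrawal arrays were all above the doxycycline arrays. The differences were 0.26 ± 0.07 and 0.28 ± 0.07, with limma adjusted p of 0.127 and 0.105. The call depends on the variance model and on the genes adjusted over. With trend and robust options in eBayes the adjusted p values were 0.0126 and 0.0297. Among probe sets above the median level they were 0.0385 and 0.0313, and the mean of both probe sets differed by 0.27 with an adjusted p of 0.0311 over all genes.

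Il18r1, the chain that binds IL-18, read 8.13, 8.10 and 8.10 under doxycycline and 8.13, 7.88 and 7.90 after withdrawal. Withdrawal replicate 1 lay at the doxycycline level and the other withdrawal arrays below it. The difference was -0.14 ± 0.08 (limma adjusted p = 0.515), with a sign opposite to that of its partner chain. Il1r1, the signalling receptor of IL-1, read 5.87, 5.59 and 5.73 on its brighter probe set under doxycycline and 5.55, 5.65 and 5.36 after withdrawal. Its groups overlapped, and its difference was -0.21 ± 0.10 (limma adjusted p = 0.418), at levels within the range of the tissue genes outside blood. The other Il1r1 probe set lay below that range, from 2.50 to 2.72 on all arrays.

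Over the 13 probe sets the groups did not overlap for 7, of which 4 were higher and 3 lower after withdrawal, against 20.8% of all probe sets in either direction and 10.2% higher. The unadjusted p in limma was below 0.05 for 4 of the 13, against 14.3% of all probe sets. The median difference of the 9 genes was -0.07. The median of all 18193 genes was 0.01, with a 5th to 95th percentile range of -0.26 to 0.26.

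**Figure D3:**
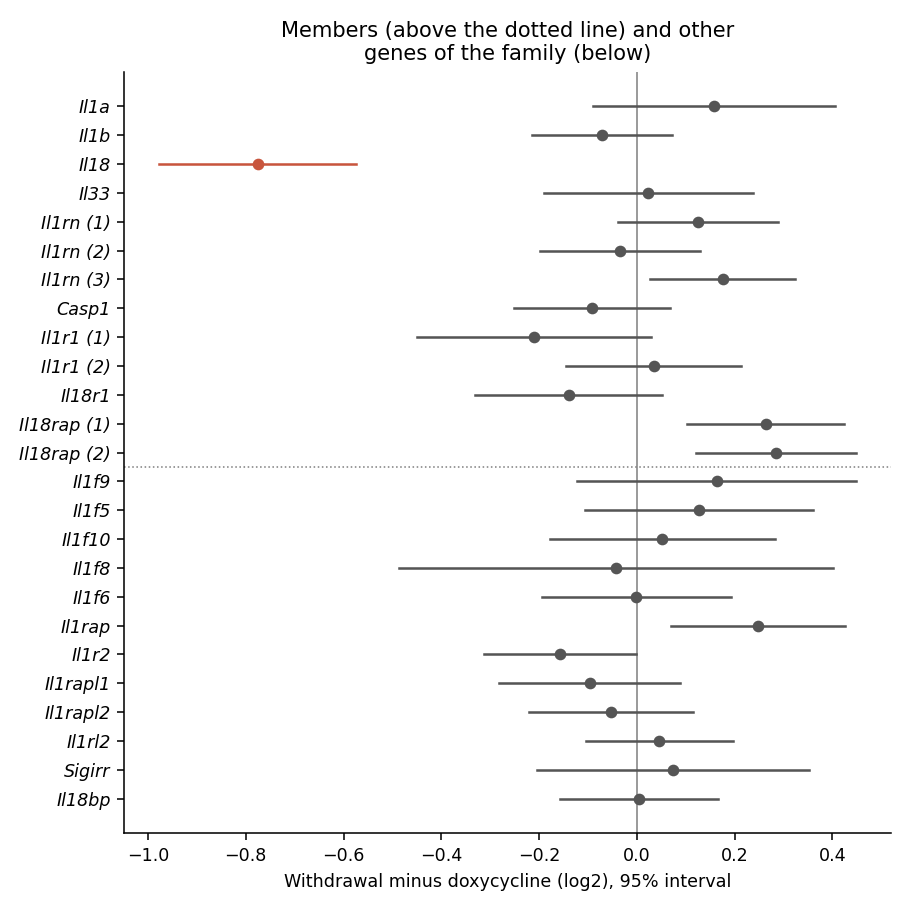
Difference between withdrawal and doxycycline (log2, points) with its 95% interval from limma for the 13 member probe sets, above the dotted line, and for 12 other genes of the family, below it. The interval of Il18 (-0.98 to -0.57, in red) is the one with an adjusted p below 0.05; intervals are not adjusted for multiple tests.

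The other genes of the family did not pass either. Among 5 further ligand genes, Il1f5, Il1f6, Il1f8, Il1f9 and Il1f10, which belong to the IL-36 and IL-38 branches, 0 were called, and all except Il1f9 lay within the range of the tissue genes outside blood. Il1f9, an agonist of the IL-36 receptor, read 7.57 ± 0.17 (SD, n = 3) under doxycycline and 7.74 ± 0.19 (SD, n = 3) after withdrawal. Of 7 further receptor and decoy genes 0 were called, against 2.77% of all genes. Il1r2, the decoy receptor that traps IL-1, read 10.52, 10.61 and 10.64 under doxycycline and 10.38, 10.45 and 10.46 after withdrawal. It was lower on every withdrawal array, by 0.16 on average (-0.16 ± 0.07, limma adjusted p = 0.342). Il1rap, the chain shared by the IL-1 and IL-33 receptors, went from 6.78 to 7.03 on its brightest probe set (0.25 ± 0.08, limma adjusted p = 0.192). Its other probe sets differed by 0.23, -0.03, -0.03 and 0.08, with groups that overlap, and none passed. Il18bp, the soluble protein that neutralises IL-18, read 7.23 in both groups, with a difference of 0.004 ± 0.07. By unadjusted p in limma, on the probe set of highest mean, 0 of the 5 ligand genes and 2 of the 7 receptor and decoy genes were below 0.05. The share of all probe sets was 14.3%. The other Il1f5 probe set differed by 0.24, without overlap (unadjusted p in limma 0.0257, adjusted p 0.262). Its means of 4.75 under doxycycline and 4.99 after withdrawal lay within the range of the tissue genes outside blood.

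Receptor and ligand genes of the family stand beside each other in the RefSeq gene order. Il1r2, Il1r1, Il1rl2, Il1rl1, Il18r1 and Il18rap follow one another among the protein-coding genes of their chromosome, and Il1a is next to Il1b. The signs within the receptor row differed, with -0.16 for Il1r2, -0.21 for Il1r1, 0.05 for Il1rl2, -0.14 for Il18r1 and 0.26 for Il18rap. Slc9a4, the ion exchanger gene that follows Il18rap, differed by 0.08, with means of 3.19 and 3.26 that lie near the floor. Il18 lies between Bco2, a carotenoid-cleaving enzyme (-0.29 ± 0.11, limma adjusted p = 0.269), and Tex12, a gene of meiosis (-0.15 ± 0.09). Casp1 is followed by Casp4 and Casp12. Casp4, whose mouse protein (caspase 11) senses bacterial lipopolysaccharide in the cytosol, went from 8.81 to 9.11 (0.29 ± 0.07, limma adjusted p = 0.0993) and did not pass, whereas Casp12 (-0.08 ± 0.10) lay near the floor.

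Downstream of the receptors, 0 of 22 measured genes of the MyD88 pathway passed the test in limma, against 2.77% of all genes. Their median difference was 0.03. Unadjusted p was below 0.05 for 5 of the 22, against 14.3% of all probe sets, and 2 fell with trend and robust options. Myd88, the adaptor of the family, read 9.85 in both groups (0.0003 ± 0.07). Irak3, a kinase-like inhibitor of this signal, went from 9.39 to 9.61 (0.22 ± 0.08). Ikbkg, the regulatory subunit of the IκB kinase, had the smallest adjusted p of the list, at -0.32 ± 0.09 (limma adjusted p = 0.147), with all 6 of its probe sets lower. Relb, an NF-κB subunit, differed by -0.36 ± 0.14 with groups that overlap.

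Of 20 measured genes of inflammasomes and of the death they trigger, 1 rose and 2 fell. Of all genes 1.2% were called higher and 1.57% lower. Serpinb1a, an inhibitor of neutrophil serine proteases, read 13.01, 13.02 and 13.10 under doxycycline and 13.57, 13.55 and 13.47 after withdrawal. It rose by 0.49 ± 0.07 (limma adjusted p = 0.0150), and its other probe set rose as well. Ninj1, which ruptures the membrane of dying cells, differed by -0.45 ± 0.08 (limma adjusted p = 0.0394), and its 3 other probe sets were lower without passing. Txnip, an inhibitor of thioredoxin that can bind NLRP3, differed by -0.34 ± 0.06 (limma adjusted p = 0.0416). Its other probe set differed by -0.30 without passing (limma adjusted p = 0.102). The sensor Nlrp3 (-0.07), the adaptor Pycard (0.03) and the pore protein Gsdmd (0.04) did not pass. Neither did Casp4, described above, nor Gsdme, another pore protein (-0.33, limma adjusted p = 0.268; its other probe set 0.23). Between 0 and 1 gene of the list passed in the fits on 5 arrays. Leaving out whichever array ended the calls of Ninj1 and Txnip, with limma adjusted p reaching 0.165 and 0.171. Serpinb1a stayed called only in the fit that lacked withdrawal replicate 3, and reached 0.0828 in the others.

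**Figure D4:**
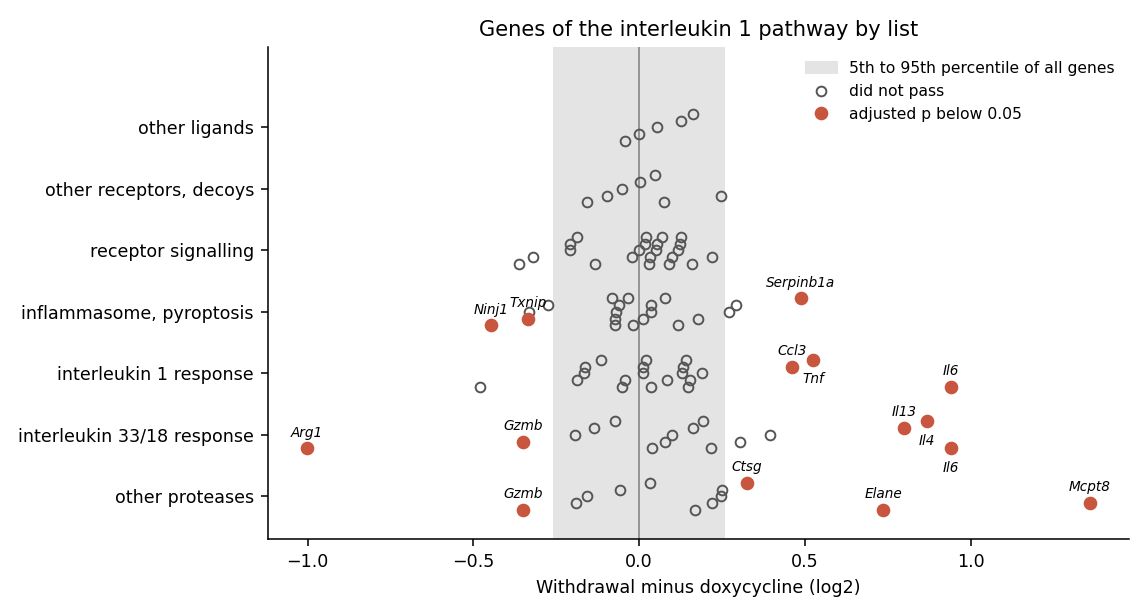
Difference between withdrawal and doxycycline (log2) of each measured gene on 7 lists of the IL-1 pathway; filled points have an adjusted p below 0.05 and are named, open points did not pass, and the grey band spans the 5th to 95th percentile of all genes (-0.26 to 0.26). Filled points number 0 of 5 other ligands, 0 of 7 other receptors, 0 of 22 signalling, 3 of 20 inflammasome, 3 of 21 IL-1 response, 5 of 16 IL-33 and IL-18 response and 4 of 12 protease genes, against 2.77% of all genes; differences between lists were not tested.

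Among 21 genes that IL-1 and NF-κB are known to induce, 3 rose and none fell, and the median difference was 0.04. These counts stand against 1.2% of all genes called higher and 1.57% called lower. Il6, an inflammatory cytokine, read 10.89, 10.87 and 10.88 under doxycycline and 11.86, 11.82 and 11.79 after withdrawal, a rise of 0.94 ± 0.06 (limma adjusted p = 0.000568). Tnf, tumour necrosis factor, read 7.9975, 8.17 and 8.24 under doxycycline and 8.65, 8.65 and 8.67 after withdrawal, a rise of 0.52 ± 0.08 (limma adjusted p = 0.0215). Ccl3, a chemokine for monocytes and neutrophils, rose by 0.46 ± 0.06 (limma adjusted p = 0.0139). The feedback inhibitors Nfkbia (0.08 ± 0.07), Tnfaip3 (0.01 ± 0.06) and Nfkbiz (-0.04 ± 0.07), which NF-κB also induces, did not pass, and neither did the inhibitor Nfkbie (-0.48 ± 0.17, limma adjusted p = 0.248) or the chemokine Cxcl1 (0.19, limma adjusted p = 0.510). In fits on 5 arrays 1 or 2 genes of the list rose. Il6 passed in all 6 of these, Tnf in none (limma adjusted p reaching 0.0971), and Ccl3 only in the one that lacked withdrawal replicate 3 (reaching 0.0818 in the others).

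Of 16 measured genes that IL-33 or IL-18 induces in innate and lymphoid cells, 3 rose and 2 fell, Il6 being on this list too. The shares of all genes were 1.2% called higher and 1.57% called lower. Il4, a type 2 cytokine, read 7.55, 7.34 and 7.49 under doxycycline and 8.31, 8.26 and 8.43 after withdrawal, a rise of 0.87 ± 0.08 (limma adjusted p = 0.00325). Il13, its neighbour in function, read 5.79, 5.77 and 5.98 under doxycycline and 6.91, 6.70 and 6.33 after withdrawal. The rise was 0.80 ± 0.15 (limma adjusted p = 0.0431), from a doxycycline mean of 5.85 within the range of the tissue genes outside blood. Arg1, an arginase of alternatively activated macrophages, read 6.20, 6.56 and 6.40 under doxycycline and 5.61, 5.45 and 5.10 after withdrawal, a difference of -1.003 ± 0.15 (limma adjusted p = 0.0193). Both of its group means lie within the range of the tissue genes outside blood, the doxycycline mean of 6.39 at the upper end. The size of its difference is therefore uncertain. Gzmb, granzyme B, differed by -0.35 ± 0.06 (limma adjusted p = 0.0392). Il5 (0.08 ± 0.08), Il9 (0.04 ± 0.13) and Ifng (0.10 ± 0.07) were at floor levels in both groups. Nfil3, a transcription factor (0.39, limma adjusted p = 0.0953), and the inhibitory receptor gene Cd200r1 (0.30, limma adjusted p = 0.195) did not pass.

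**Figure D5:**
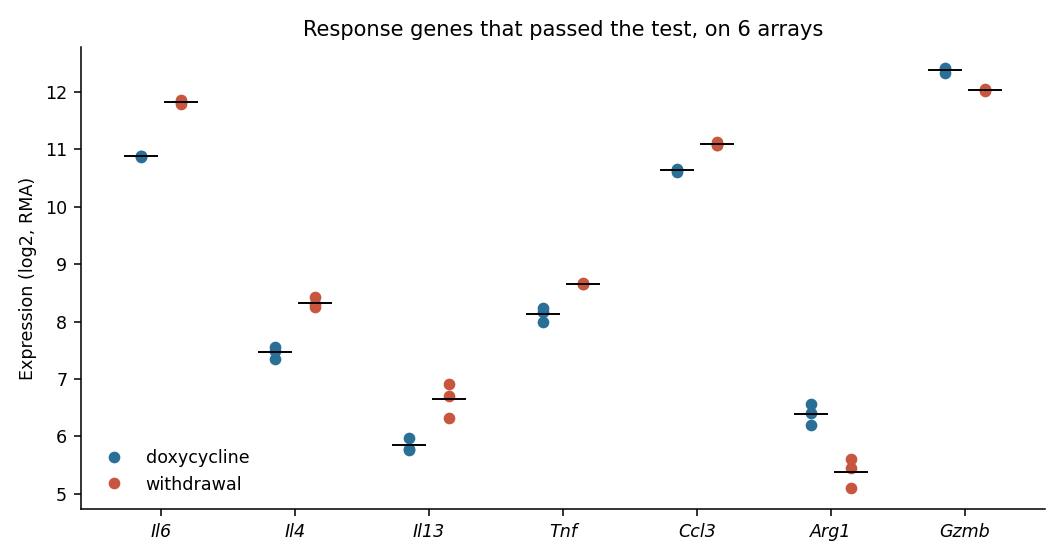
Expression (log2, RMA) on each array of the 7 response genes that passed the test, with doxycycline arrays in blue, withdrawal arrays in red and group means as bars. Il6, Il4, Il13, Tnf and Ccl3 are higher and Arg1 and Gzmb lower on all 3 withdrawal arrays, without overlap between the groups.

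The IL-33 and IL-18 response calls differed in how far they rest on single arrays. In the 6 fits on 5 arrays Il6 and Il4 passed each time. Il13 passed only in the fit that lacked withdrawal replicate 3, with limma adjusted p reaching 0.173 in the others. Arg1 did not pass in the fits that lacked withdrawal replicate 2 or a doxycycline array (reaching 0.0982), and Gzmb passed in none (reaching 0.163). Between 2 and 4 genes of this response passed in these fits.

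Proteases other than caspase 1 can also cleave cytokines of this family. Of 12 measured genes on a list of other proteases 3 rose and 1 fell, against 1.2% of all genes called higher and 1.57% called lower. A place on the list does not show that a protease cleaves such a cytokine, and Mcpt8 is also on the mast cell and basophil marker list. The genes called were Mcpt8, a basophil protease (1.36 ± 0.06), Elane, the neutrophil elastase (0.74 ± 0.07), Ctsg, cathepsin G (0.32 ± 0.06, limma adjusted p = 0.0492), and Gzmb, which fell. Prtn3, proteinase 3, went from 14.07 to 14.31 (0.25 ± 0.06, limma adjusted p = 0.117) and did not pass, nor did the calpain Capn1 (0.25, limma adjusted p = 0.232). In each fit on 5 arrays 2 genes of the list passed, Mcpt8 and Elane; Ctsg reached an adjusted p of 0.183 and Gzmb of 0.163.

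Markers of mast cells, basophils and eosinophils moved with these response and protease genes. The counts of each list below stand against 1.2% of all genes called higher and 1.57% called lower. Of 12 measured mast cell and basophil genes 5 rose and none fell, Il4 and Mcpt8 among them, and the mean level of the list was 8.97 to 9.08 after withdrawal and 8.58 to 8.63 under doxycycline. Of 6 measured eosinophil genes 5 rose, with list means of 8.74 to 8.83 and 8.21 to 8.26; of these Il5ra, the IL-5 receptor chain (4.22 to 4.76), lay within the range of the tissue genes outside blood, as did Ccr3, which did not pass. Of 8 measured late neutrophil genes 1 rose (Camp, by 0.35, in no fit on 5 arrays), and the list means were 12.77 to 12.79 after withdrawal and 12.75 to 12.79 under doxycycline. In fits on 5 arrays 4 or 5 of the mast cell and basophil genes rose, and 3 or 4 of the eosinophil genes. Without both withdrawal replicate 3 and doxycycline replicate 1 these were 2 and 0. Among mast cell genes, the tryptases Tpsb2 and Tpsab1 and the chymase Mcpt4 lay within the range of the tissue genes outside blood. Of 10 measured genes of T cells and innate lymphoid cells 8 lay there as well, Cd3e, Gata3 and Rora among them. Thy1, a surface glycoprotein on that list, was well above it and fell from 11.13 to 10.38 (-0.76 ± 0.07, limma adjusted p = 0.00221), with an adjusted p of 0.0522 without both arrays set apart. All 5 measured B cell genes lay within the range, and 1 of them, Cd79b, was called lower (-0.57), in no fit on 5 arrays. Of 12 endothelial, epithelial and stromal genes 11 lay there. In limma 0 of these 12 and 0 of 8 dendritic cell genes passed, with 1 and 2 at an unadjusted p below 0.05. Whether the marker changes bear on the response genes was not tested. Of the 8 measured genes listed for haematopoietic progenitors, only Flt3 lay within the floor range. Ptprc (12.53), Myb (12.90), Kit (9.42) and Spi1 (10.34), as means of all arrays, lay above it. Cd34 fell by 0.51 (limma adjusted p = 0.0463). Among the fits on 5 arrays that call was kept only without withdrawal replicate 1 (limma adjusted p reaching 0.173 in the others). These levels alone do not check the label of haematopoietic progenitors.

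The genes most like Il18 over the 6 arrays, by the root mean square distance between centred log2 values among 7993 genes with a mean of at least 7, were Rab38 (0.067), Mpzl1 (0.073) and Mndal (0.080). Rab38 is a small GTPase of lysosome-related organelles, Mpzl1 a surface glycoprotein and Mndal an interferon-inducible nuclear protein. The Mndal values come from a probe set of a type that can cross-hybridise with other transcripts. Rab38 read 10.96, 10.92 and 10.88 under doxycycline and 10.14, 10.09 and 10.17 after withdrawal. All 3 fell, by 0.79, 0.84 and 0.80, as the choice by likeness to Il18 fixes, and the likeness rests mainly on the difference between the groups.

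Facts of the whole series bear on these values as follows. Array medians ran from 5.22 to 5.27, and correlations between arrays from 0.994 to 0.998. The 3 probe sets of Mecom, the gene of Evi1, lay near the floor with differences of -0.10, -0.04 and 0.13, none past the threshold. As the transgene is codon-optimized, they do not check the labels.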

How the data were processed

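Expression in 6 samples of clone C6 was measured on 6 mouse arrays, 1 each, from amplified and biotin-labelled cDNA. The authors' deposited table holds log2 values per probe set, made with RMA per the submitters' processing notes. The RMA version and filters were not given in the sources used here. RMA puts all arrays on a shared distribution, so a general shift would be removed, and it compresses differences of dim transcripts. The log2 unit was read from the range of the values.

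Of 45101 rows, 64 control probe sets were left out. The platform annotation gave 34945 probe sets with 1 symbol, 932 with several and 9160 with none. Promoters came from RefSeq and matched all 10 genes, and gene order came from the same build, GRCm38.p6. Groups came from the titles. The comparison used limma 3.58.1 in R 4.3.3, with lmFit and then eBayes on all 45037 probe sets, two-sided, with 4 residual and 3.54 prior degrees of freedom, adjusted by Benjamini-Hochberg with a threshold of 0.05. List genes were read from the probe set of highest mean. The number of arrays limits the precision.

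The members, the 7 pathway lists, the 10 marker lists and the alternatives were chosen with earlier results of these data known. Named were all members, up to 6 passed genes per list with the smallest adjusted p, up to 2 others with the largest difference, any gene of lists of up to 9, gene neighbours and the 3 genes most like the member with the largest called difference. Irak3, Myd88, Nlrp3, Pycard, Gsdmd, Nfkbia, Tnfaip3, Nfkbiz, Il5, Il9 and Ifng were named after their values were seen, for their roles. On simulated data 87% of 100 probe sets changed by 1 and 49% of 100 changed by 0.5 were recovered among 45037, with 1.45% false calls. The changed probe sets were drawn only from those above the median level, so the recovery does not cover dimmer ones. The noise was drawn independently for each probe set and array. The rates therefore do not cover variation that probe sets of an array share. Deviations from the group means correlated between same-numbered replicates at -0.30, 0.46 and -0.03 for replicates 1, 2 and 3. The best partner had the same number for replicate 2 only. With 3 arrays per group these values cannot settle whether replicates were paired. Figures used matplotlib 3.10.9 in Python 3.11.15.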

Additional observations from a re-analysis of the deposited data

How the results depend on the processing

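Results were recomputed under those of 15 alternatives that apply to them, 12 to 14 for each gene or probe set: each array left out in turn, both arrays set apart on the second component left out, a replicate block, probe sets above the median level only, 2 other scalings, 2 other variance models, averaged probe sets per gene and, for members, no probe sets that can cross-hybridise. Il18 was lower in every fit that held it and lost its call in 1, without both arrays set apart (-0.74, limma adjusted p = 0.123), where 0 member probe sets and 0 member genes were called. In that fit 122 of all probe sets, 0 inflammasome, 1 IL-1 response, 1 IL-33 and IL-18 response and 1 protease genes passed. With the replicate block, which the labels do not support as a pairing, 291 probe sets, 0 inflammasome, 1 IL-1 response, 2 IL-33 and IL-18 response and 2 protease genes passed, and Il18 kept its call (limma adjusted p = 0.0373). Above the median level 1944 probe sets, 3 of the members and 2 member genes passed. With trend and robust options these were 2460, 3 and 2, and 2 MyD88 pathway and 5 inflammasome genes passed; array weights gave 1720 probe sets. Centring on the median left 1 inflammasome gene, and with the mean of probe sets 2 member genes passed. With 1 array left out, 261 to 572 of all probe sets, 0 or 1 inflammasome, 1 or 2 IL-1 response, 2 to 4 IL-33 and IL-18 response and 2 protease genes passed. The cause of these moves was not tested, except that fewer arrays leave fewer degrees of freedom and a filter adjusts over fewer probe sets.

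Differences near 0 changed sign without passing. With 1 array left out the ranges were -0.0416 to 0.0866 for Il33, -0.0632 to 0.0123 for the middle Il1rn probe set, -0.0116 to 0.0702 for the dim Il1r1 probe set, -0.269 to 0.125 for Il1f8, -0.0738 to 0.0385 for Il1f6, -0.0298 to 0.143 for Il1f10, -0.0217 to 0.197 for Sigirr and -0.0330 to 0.0433 for Il18bp. Without both arrays set apart they were -0.00821 for Il33, -0.000902 for that Il1r1 probe set and -0.0167 for Il18bp. Array weights gave -0.00401 for the Il1r1 probe set, and averaged probe sets -0.00740 for Il1rl2. The marker list counts with arrays left out were added after seeing the data. Il1a, Il33 and Il1r1 lie at levels of tissue genes outside blood, where the size of a difference is uncertain.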
